A study of Homo sapiens with 15 samples.

Results

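RNA from C4-2 cells lacking ATGL was compared with RNA from C4-2 cells carrying a scramble control. C4-2 is a human castration-resistant prostate cancer line derived from LNCaP. ATGL (adipose triglyceride lipase) is the product of PNPLA2. The libraries were taken by their titles, 3 of the ATGL knockout (KO) and 3 of the scramble control (Scramble), which are 6 of the 15 libraries of the series. All 20806 gene entries of the count tables were carried into the comparison, and 14246 passed the filter on low counts.

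Both groups are C4-2 cells grown in glucose-free RPMI1640 to which 5 mM glucose and 5% dialyzed serum had been added, with no other agent named in the labels. The other 9 libraries come from the knockout with an ATGL protein returned to it: wild type (KO_WT), S47A (KO_S47A) or S404A (KO_S404A). They entered the fit only to share the estimate of the spread. There is 1 line per genotype, of a clonal state that the labels leave out, so loss of ATGL and any other difference between the KO and Scramble lines cannot be told apart. Whether replicates were grown as separate cultures is not labelled either. The p-values therefore cover no more than the spread between libraries, which may be technical.

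ATGL sits on the lipid droplet and removes the first fatty acid from a stored triglyceride. ABHD5 activates it, G0S2 inhibits it, and hormone-sensitive lipase and monoglyceride lipase act after it. The fatty acids released can be burned in mitochondria, rebuilt into membranes, turned into signalling lipids or bound by nuclear receptors. Prostate cancer cells take up, make and oxidise fatty acids, and androgen signalling drives many of the enzymes involved.

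Levels are CPM, read counts scaled to a common library size after TMM scaling, replicates are numbered 1 to 3 as labelled, and ± is the SD over n = 3 libraries. Log2 fold changes are KO minus Scramble with their standard error (SE), and a gene is said to rise or fall where the Benjamini-Hochberg adjusted p of edgeR's quasi-likelihood test, adjusted over all 14246 genes, was under 0.05. Counts in genes were 47325563 to 55731053 per library in KO and 40846694 to 51662088 in Scramble. Reads assigned to no gene made up 15.5% to 16.7% of a library in KO and 17.1% to 20.6% in Scramble. KO 1 had the longest genes weighted by counts, 3827 bases, against 3617 to 3683 bases in the other 5 libraries, and the part of this in the results was not tested.

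PNPLA2 itself had 12.99, 11.9 and 9.11 CPM in KO, against 54.3, 47.05 and 45.3 CPM in Scramble. The ranges lay far apart, and transcript was still present in KO (log2 fold change −2.11, SE 0.20, adjusted p = 3.54e-05). In these bulk samples fewer cells with a transcript and less of it per cell cannot be told apart. The prostate markers HOXB13, KLK3 and FOLH1 were abundant in all 6 libraries, with a summed level of 3530 to 4300 CPM in KO and 4920 to 5210 CPM in Scramble, and none of the 3 passed the test. With the replicate number as a block, KLK3, which encodes prostate-specific antigen, was called lower in KO (log2 fold change −0.62, adjusted p = 0.00504). Of 18 markers of stroma, endothelium, blood and adipocytes, 15 stayed under 1 CPM in all 6 libraries, and COL1A2, CDH5, KDR, PTPRC, CD3E, HBB and ADIPOQ had no count. Of the basal markers, KRT5, KRT17 and TP63 had no count, while the basal keratin KRT14 averaged 2.17 ± 0.207 CPM in KO and 4.46 ± 0.197 CPM in Scramble and fell (log2 fold change −1.04, SE 0.17, adjusted p = 0.00315). Another of the 4 tested basal genes, ITGB4, rose (log2 fold change 0.54, SE 0.10, adjusted p = 0.00683). The more abundant ITGA6 averaged 74.1 CPM in KO and 58.2 CPM in Scramble and was not called. With the replicate block 2 basal genes, ITGA6 included, were called higher and 1 lower.

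Of the tested genes, 383 (2.69%) differed: 138 were higher in KO (0.969%) and 245 were lower (1.72%). The KO and Scramble ranges did not overlap for any of the 383, while ranges that did not overlap were found for 20.7% of all tested genes. Changes were large for many of them. Of the risen genes, 61 moved at least 2-fold, 26 at least 4-fold and 11 at least 8-fold, and of the fallen genes 116, 57 and 38 did. The median size was 0.95 on the log2 scale among risen genes and 0.89 among fallen genes, and the median over all tested genes was 0.02. Calls were spread over all levels: 2.78%, 3.88%, 1.83% and 2.27% of genes were called in 4 equal classes of mean CPM from low to high.

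**Figure D1:**
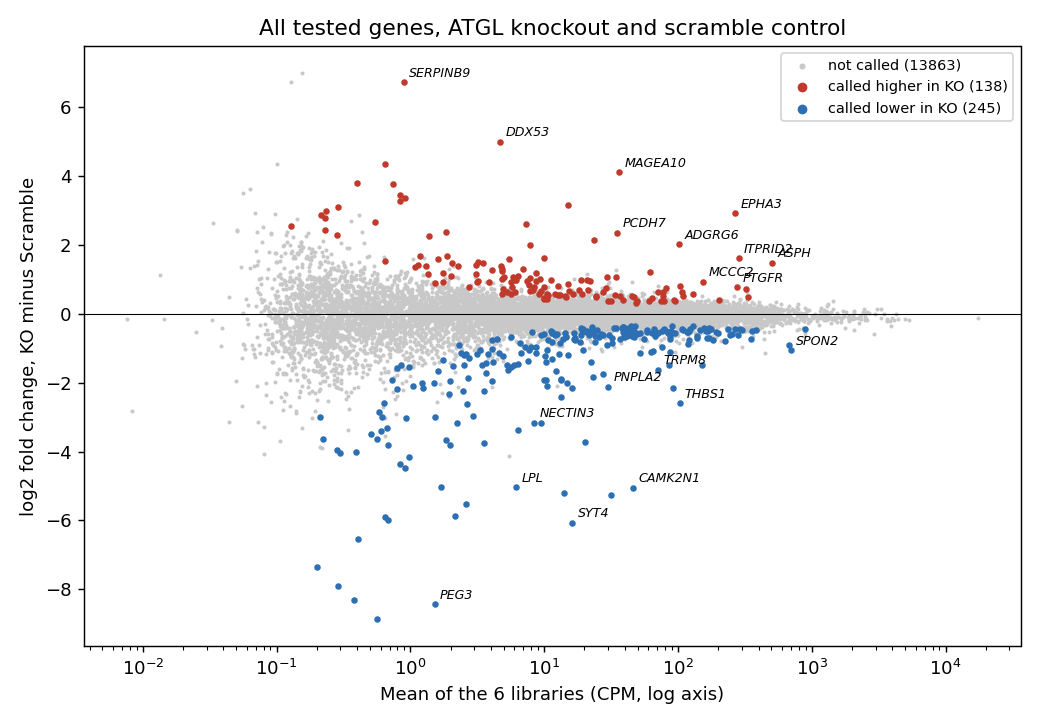
Each point is 1 of the 14246 tested genes, by its mean CPM over the 6 KO and Scramble libraries (log axis) and its log2 fold change, KO minus Scramble. The 138 genes called higher in KO and the 245 called lower are coloured, and the labelled genes are described in the text.

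KO 3 and Scramble 3 deviated from their group means together (correlation 0.404). For numbers 1 and 2, same-numbered pairs (0.126 and 0.17) were close to crossed pairs (0.118 and 0.165). With the number as a block 1181 genes were called (8.29%), of which 467 were higher (3.28%) and 714 lower in KO (5.01%). All 383 genes called without the block were among them. Leaving out KO 1, KO 2 or KO 3 gave 215, 209 and 213 calls, and leaving out Scramble 1, 2 or 3 gave 206, 205 and 291. In all 6 of these fits 55 of the risen and 101 of the fallen genes were called. Chromosome 22 held 43 of the fallen genes and 1 of the risen ones among its 375 tested genes, and its median log2 fold change was −0.32.

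Some genes were near silent in 1 line. With at least 1 CPM on average in one group and under 0.1 CPM in the other, 10 called genes were off in KO and 3 were on. The imprinted zinc finger gene PEG3 had 0, 1 and 0 counts in KO, against 143, 152 and 121 counts in Scramble, a ratio of Scramble over KO of 470.5-fold with a lower 95% counting limit of 83.98. PABPC5, a poly(A)-binding protein encoded on the X chromosome, had 2, 3 and 6 counts in KO, against 179, 253 and 152 counts in Scramble, a ratio of 60.04-fold (95% counting interval 33.3 to 121). The carbonic anhydrase CA1 had 0, 0 and 0 counts in KO, against 71, 58 and 22 counts in Scramble, so its level was at least 56.9-fold lower in KO. All 3 Scramble libraries carried these transcripts at levels that no KO library approached.

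The related CA8, which lacks the catalytic activity of the family, had 3, 7 and 2 counts in KO, against 56, 65 and 104 counts in Scramble. SLFN13, a Schlafen protein that cleaves tRNA, had 0, 0 and 3 counts in KO, against 33, 49 and 112 counts in Scramble. The immunoglobulin-superfamily gene IGSF21 had 10, 0 and 5 counts in KO, against 146, 116 and 192 counts in Scramble. SLFN13 and CA8 were uneven within Scramble, with replicate 3 above the other two. The other genes off in KO were MAGEA4, PDE3A, SEMA6D and THSD7A. Intervals of these ratios cover counting error only.

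The genes on in KO were SERPINB9, NKAIN3 and LINC01139. SERPINB9, the intracellular inhibitor of granzyme B, had 86, 105 and 88 counts in KO, against 0, 1 and 1 counts in Scramble, a ratio of KO over Scramble of 123-fold (95% counting interval 33.8 to 1024). NKAIN3, a protein that binds the sodium pump, had 68, 90 and 36 counts in KO, against 4, 1 and 3 counts in Scramble, a ratio of 21.4-fold (95% counting interval 10.7 to 50.4). The long noncoding LINC01139 had 65, 105 and 49 counts in KO, against 1, 6 and 7 counts in Scramble. Adjusted p rose above 0.05 in some fits for CA1 (0.0554 to 0.0658 with any library except Scramble 2 and Scramble 3 left out), SEMA6D (0.0536 to 0.072 without KO 1 or Scramble 1) and THSD7A (0.0571 to 0.0703 without KO 1 or KO 2).

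The largest rises among genes with at least 5 CPM began with DDX53, a cancer-testis RNA helicase, at 9.35, 9.17 and 8.64 CPM in KO, against 0.300, 0.207 and 0.332 CPM in Scramble (log2 fold change 5.00, SE 0.27, adjusted p = 1.98e-07). MAGEA10, of the MAGE family of testis antigens, averaged 68.3 ± 2.03 CPM in KO and 3.92 ± 0.346 CPM in Scramble. RALYL, an RNA-binding protein, averaged 27.3 ± 6.98 CPM in KO and 3.05 ± 0.944 CPM in Scramble. All 3 averaged under 4 CPM in Scramble. MAGEA reads may be shared with near-identical relatives, which makes that value uncertain.

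Several highly expressed genes rose. EPHA3, an ephrin receptor, had 483, 511 and 433 CPM in KO, against 63.5, 67.8 and 55.9 CPM in Scramble (log2 fold change 2.93, SE 0.17, adjusted p = 4.11e-07). ASPH, an aspartate beta-hydroxylase of the endoplasmic reticulum, had 736, 760.4 and 734 CPM in KO, against 257, 256 and 284 CPM in Scramble (log2 fold change 1.48, SE 0.10, adjusted p = 7.83e-07). ITPRID2, which binds the inositol trisphosphate receptor, had 439, 434 and 411 CPM in KO, against 139, 147 and 133 CPM in Scramble (log2 fold change 1.62, SE 0.10, adjusted p = 4.35e-07). Within each group the replicates of these 3 genes lay close together and far from the other group. ADGRG6, an adhesion G protein-coupled receptor, averaged 164 ± 43.2 CPM in KO and 40.5 ± 7.23 CPM in Scramble. The secreted ADAMTSL3 averaged 15.1 ± 3.40 CPM in KO and 4.86 ± 0.426 CPM in Scramble, and butyrylcholinesterase (BCHE) 12.5 ± 1.26 CPM in KO and 3.12 ± 0.958 CPM in Scramble.

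Among the fallen genes, SYT4, a synaptotagmin, had 0.267, 0.486 and 0.655 CPM in KO, against 36.3, 35.2 and 24.2 CPM in Scramble (log2 fold change −6.07, SE 0.37, adjusted p = 4.35e-07). CAMK2N1, an inhibitor of calmodulin kinase II, had 3.47, 3.06 and 1.63 CPM in KO, against 99.99, 126 and 42.8 CPM in Scramble (log2 fold change −5.04, SE 0.57, adjusted p = 0.000183). CCDC85A had 0.863, 0.612 and 0.729 CPM in KO, against 28.8, 32.4 and 20.6 CPM in Scramble (log2 fold change −5.21, SE 0.23, adjusted p = 2.04e-08). Each stayed under 4 CPM in every KO library and was far above that in every Scramble library. CDR1 had 4, 7 and 6 counts in KO, against 281, 298 and 102 counts in Scramble; its reads cannot be told apart from those of its antisense partner, since the strand setting of the counting is not given. TMSB4XP8, a pseudogene of thymosin beta 4, averaged 4.21 ± 0.634 CPM in KO and 22.6 ± 5.03 CPM in Scramble, and its reads may be shared with its parent gene and other copies.

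NECTIN3, a cell adhesion molecule of epithelial junctions, averaged 1.69 ± 0.311 CPM in KO and 15.2 ± 2.91 CPM in Scramble (log2 fold change −3.16, SE 0.26, adjusted p = 9.02e-06). TRIB2, a pseudokinase that steers protein degradation, averaged 1.93 ± 0.818 CPM in KO and 17.1 ± 4.42 CPM in Scramble (log2 fold change −3.15, SE 0.28, adjusted p = 1.99e-05). TGM2, the tissue transglutaminase that crosslinks proteins, averaged 0.675 ± 0.434 CPM in KO and 5.25 ± 0.843 CPM in Scramble (log2 fold change −2.96, SE 0.51, adjusted p = 0.00585), and the epidermal TGM3, chosen after its values were seen, 0.261 ± 0.139 CPM in KO and 3.69 ± 1.81 CPM in Scramble (log2 fold change −3.80, SE 0.59, adjusted p = 0.00281). Both transglutaminases averaged below 1 CPM in KO. PLPPR1, a membrane protein related to lipid phosphate phosphatases, averaged 0.493 ± 0.0932 CPM in KO and 6.64 ± 1.18 CPM in Scramble.

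**Figure D2:**
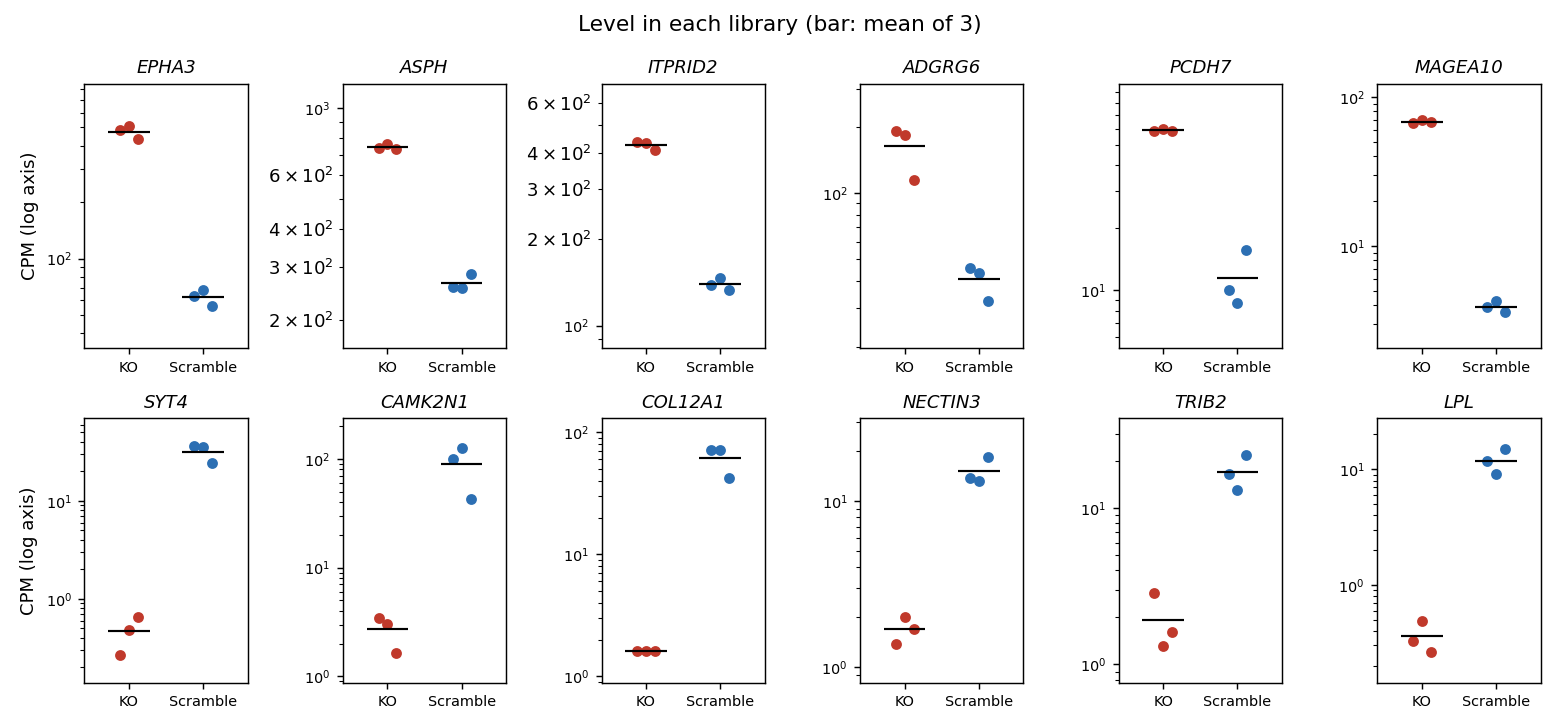
CPM (log axis) of 12 genes described in the text, 1 point per library, with the 3 KO libraries left of the 3 Scramble libraries and a bar at each mean. EPHA3, ASPH, ITPRID2, ADGRG6, PCDH7 and MAGEA10 are higher in every KO library, and SYT4, CAMK2N1, COL12A1, NECTIN3, TRIB2 and LPL are lower in every KO library.

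Transcripts outside the lists changed too, some of them abundant. SPON2, a secreted matrix protein, averaged 455 ± 18.8 CPM in KO and 939.95 ± 141 CPM in Scramble (log2 fold change −1.05, SE 0.18, adjusted p = 0.00446). BTG1, an antiproliferative factor, averaged 80.2 ± 8.02 CPM in KO and 223 ± 42.9 CPM in Scramble (log2 fold change −1.47, SE 0.22, adjusted p = 0.00194), and MCCC2, of leucine breakdown, 201 ± 6.77 CPM in KO and 105 ± 3.88 CPM in Scramble (log2 fold change 0.93, SE 0.12, adjusted p = 0.000736). NCOA1, a coactivator of nuclear receptors, averaged 133 ± 17.3 CPM in KO and 75.6 ± 2.00 CPM in Scramble (log2 fold change 0.81, SE 0.11, adjusted p = 0.00118). ODC1, the first enzyme of polyamine synthesis, averaged 755 ± 61.4 CPM in KO and 1029 ± 2.72 CPM in Scramble (log2 fold change −0.45, SE 0.11, adjusted p = 0.0474), and SAT1, the acetylase that sends polyamines to export and breakdown, 27.7 ± 1.40 CPM in KO and 46.04 ± 1.86 CPM in Scramble (log2 fold change −0.73, SE 0.14, adjusted p = 0.0108). These 6 genes were chosen after their values were seen. Not called in every fit, with the adjusted p in brackets, were ODC1 (0.1 to 0.199 with any 1 library left out, 0.0599 with no filter on low counts) and SAT1 (0.0519 to 0.059 without KO 1 or Scramble 2).

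Genes of fat metabolism are given by step, from the droplet to oxidation and synthesis. Counts with the replicate block stand beside 8.29% of all tested genes, and those without it beside 2.69%. Of 28 tested lipolysis and lipid droplet genes, 1 rose and 1 fell (7.14%), with a median log2 fold change of −0.02. The number called was 1 to 2 with 1 library left out, fewest without KO 3, Scramble 1 or Scramble 2, and 4 with the replicate block (2 higher, 2 lower). The fallen member was PNPLA2, the knocked-out gene itself, so the 7.14% includes the gene that defines the groups. The only other call was monoglyceride lipase (MGLL), which rose (log2 fold change 0.65, SE 0.13, adjusted p = 0.0119). For uptake and activation of fatty acids, LPL, the lipase that frees fatty acids from lipoproteins, had 0.329, 0.486 and 0.262 CPM in KO, against 11.7, 9.03 and 15.00 CPM in Scramble (log2 fold change −5.04, SE 0.56, adjusted p = 0.000168), and SLC27A3, an acyl-CoA synthetase and transporter, rose (log2 fold change 1.06, SE 0.25, adjusted p = 0.0351). LPL was thus below 1 CPM in every KO library. The 27 tested genes of fatty acid uptake and activation had 1 that rose and 1 that fell (7.41%), at a median log2 fold change of 0.08. Called members numbered 1 to 2 with 1 library left out, fewest with any library except Scramble 3 left out, and 6 with the replicate block (3 higher, 3 lower).

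Oxidation genes moved singly. Among 40 tested genes of fatty acid oxidation and ketones, 2 rose and 1 fell (7.50%), and the median log2 fold change was −0.06. Calls came to 7 with the replicate block (4 higher, 3 lower). The long-chain dehydrogenase ACADL had 41.2, 41.5 and 33.3 CPM in KO, against 7.91, 7.21 and 10.8 CPM in Scramble (log2 fold change 2.16, SE 0.16, adjusted p = 3.94e-06). ACOX2, the peroxisomal oxidase of branched-chain fatty acids and bile acid precursors, rose to 2.76 CPM in KO, against 1.28 CPM in Scramble (log2 fold change 1.11, SE 0.19, adjusted p = 0.00596). AMACR, the racemase that prepares branched-chain fatty acids for that route, was picked with its values known and fell (log2 fold change −0.67, SE 0.15, adjusted p = 0.0329). The mitochondrial carnitine carrier SLC25A20 fell (log2 fold change −0.60, SE 0.12, adjusted p = 0.016).

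Of 35 tested genes of fatty acid and triglyceride synthesis, 2 rose and 0 fell (5.71%), with a median log2 fold change of 0.04. Members called numbered 1 to 2 with 1 library left out, fewest without Scramble 1, and 4 with the replicate block (3 higher, 1 lower). The desaturase SCD5 and the acyltransferase AGPAT4 were the members that rose, at log2 fold changes of 0.69 and 1.58. The 25 tested PPAR, PGC-1 and AMPK genes had 0 that rose and 1 that fell (4%), at a median log2 fold change of 0.00. The calls numbered 0 to 1 with 1 library left out, fewest with any library except Scramble 2 left out, and 2 with the replicate block (0 higher, 2 lower). The member that fell was the AMPK catalytic subunit PRKAA2 (log2 fold change −0.42, SE 0.10, adjusted p = 0.0387). In cholesterol synthesis and uptake 0 of 30 tested members and in glycolysis 0 of 31 passed the test, and the replicate block called 2 lower in the first list and 1 higher and 1 lower in the second. The call was lost at the adjusted p given for MGLL (0.0648 to 0.0776 without KO 3, Scramble 1 or Scramble 2), SLC27A3 (0.0878 to 0.177 with any library except Scramble 3 left out), AMACR (0.0904 to 0.137 with any library except Scramble 3 left out), SLC25A20 (0.0554 to 0.0885 with any library except KO 2 and Scramble 3 left out), SCD5 (0.0646 without Scramble 1) and PRKAA2 (0.0877 to 0.18 with any library except Scramble 2 left out, 0.0629 in the fit of the 6 libraries alone, 0.0857 in the libraries numbered 1 and 2).

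PLA2G4A, PTGS1 and PLD1, which act on membrane lipids, were chosen after their values were seen, from no fixed list, and related genes that were not called are not counted. Cytosolic phospholipase A2 (PLA2G4A), which frees arachidonic acid, had 0, 0 and 0 counts in KO, against 19, 32 and 59 counts in Scramble, at least 41.5-fold lower in KO. PTGS1, the constitutive cyclooxygenase, fell (log2 fold change −2.19, SE 0.42, adjusted p = 0.0107), and phospholipase D1 (PLD1) averaged 2.64 ± 0.579 CPM in KO and 8.18 ± 2.73 CPM in Scramble (log2 fold change −1.63, SE 0.38, adjusted p = 0.0361). No KO library held a PLA2G4A read. Of the G protein-coupled receptors counted further on, the prostaglandin F receptor PTGFR had 339.8, 369 and 335 CPM in KO, against 201, 211 and 196 CPM in Scramble (log2 fold change 0.78, SE 0.11, adjusted p = 0.00144), and the prostaglandin E receptor PTGER4 fell (log2 fold change −1.53, SE 0.34, adjusted p = 0.0299). In other fits no call was made for PLA2G4A (0.0537 without KO 2), PTGS1 (0.0571 without KO 3, 0.0837 in the libraries numbered 1 and 2), PLD1 (0.0877 to 0.164 with any library except Scramble 3 left out) and PTGER4 (0.0576 to 0.134 with any 1 library left out, 0.0502 in the libraries numbered 1 and 2).

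The TGF-beta and BMP pathway carries signals from secreted ligands through paired receptor kinases to SMAD factors. Among 40 tested TGF-beta and BMP genes, 2 rose and 4 fell (15%), and the median log2 fold change was 0.08. In other fits the calls came to 10 with the replicate block (4 higher, 6 lower). The ligand BMP7 averaged 4.15 ± 0.311 CPM in KO and 15.8 ± 2.47 CPM in Scramble (log2 fold change −1.93, SE 0.19, adjusted p = 4.55e-05). Of the receptors, BMPR1B had 6.43, 5.40 and 6.04 CPM in KO, against 28.5, 26.9 and 24.2 CPM in Scramble (log2 fold change −2.16, SE 0.22, adjusted p = 6.07e-05), and TGFBR2, the type II receptor for TGF-beta, had 8, 3 and 5 counts in KO, against 43, 46 and 67 counts in Scramble, a ratio of Scramble over KO of 11.03-fold (95% counting interval 6.58 to 19.8). Levels of both receptors were low in all 3 KO libraries. BMPR1A, the other BMP type I receptor gene of this pair, rose (log2 fold change 0.51, SE 0.11, adjusted p = 0.017). The decoy receptor BAMBI averaged 5.91 ± 1.86 CPM in KO and 23.8 ± 6.10 CPM in Scramble (log2 fold change −2.01, SE 0.34, adjusted p = 0.00488), and the signal factor SMAD9 9.96 ± 0.898 CPM in KO and 5.54 ± 0.190 CPM in Scramble (log2 fold change 0.84, SE 0.13, adjusted p = 0.00309). Those called thus include a ligand, receptors, an inhibitor and a transducer. Adjusted p rose above 0.05 in some fits for TGFBR2 (0.0536 without KO 2) and BMPR1A (0.0579 to 0.126 with any library except KO 2 and Scramble 3 left out).

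Among genes of the WNT pathway, the secretion factor, a ligand and a receptor fell together. Of 49 tested WNT pathway genes, 1 rose and 4 fell (10.2%), with a median log2 fold change of 0.02. The number called was 3 to 4 with 1 library left out, fewest without KO 1, Scramble 1 or Scramble 2. WLS, which carries WNT proteins to the surface, had 6.12, 5.26 and 5.55 CPM in KO, against 20.8, 20.9 and 21.1 CPM in Scramble (log2 fold change −1.89, SE 0.12, adjusted p = 6.03e-07). The ligand WNT5A averaged 6.57 ± 1.01 CPM in KO and 16.2 ± 2.54 CPM in Scramble (log2 fold change −1.30, SE 0.18, adjusted p = 0.0011), and the receptor FZD4 32.4 ± 1.07 CPM in KO and 47.1 ± 2.85 CPM in Scramble (log2 fold change −0.54, SE 0.09, adjusted p = 0.00411). All 3 were called with each library left out in turn. The transcription factor TCF7L2 rose (log2 fold change 0.57, SE 0.12, adjusted p = 0.0235). RNF43, the ligase that removes WNT receptors, fell (log2 fold change −0.73, SE 0.17, adjusted p = 0.0299). Not called in every fit, with the adjusted p in brackets, were TCF7L2 (0.108 to 0.111 without KO 1, Scramble 1 or Scramble 2, 0.0611 in the fit of the 6 libraries alone) and RNF43 (0.0589 to 0.124 with any 1 library left out).

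Single components of other pathways changed. The Notch ligand JAG1, chosen after its values were seen, averaged 42.2 ± 2.50 CPM in KO and 88.3 ± 7.38 CPM in Scramble (log2 fold change −1.06, SE 0.10, adjusted p = 2.77e-05). The insulin receptor substrate IRS1 averaged 9.27 ± 3.08 CPM in KO and 21.00 ± 2.88 CPM in Scramble (log2 fold change −1.18, SE 0.23, adjusted p = 0.0131), and the transcription factor SOX9 1.67 ± 0.293 CPM in KO and 6.49 ± 0.849 CPM in Scramble (log2 fold change −1.95, SE 0.30, adjusted p = 0.00238). The growth factor midkine (MDK) had 107, 105 and 93.6 CPM in KO, against 63.1, 59.4 and 57.7 CPM in Scramble (log2 fold change 0.76, SE 0.11, adjusted p = 0.00126). The receptor-type phosphatase PTPRK averaged 5.64 ± 0.299 CPM in KO and 21.2 ± 1.60 CPM in Scramble (log2 fold change −1.91, SE 0.15, adjusted p = 4.25e-06). SOX9 was the only called gene of 78 tested SOX, FOX, GATA, KLF and ETS factors (1.28%). PTPRK was the only one of 48 tested PTPR and DUSP phosphatases (2.08%), and IRS1 of 14 tested IGF genes (7.14%). The share over all tested genes was 2.69%. Of 35 nuclear receptors tested 0 were called, and the replicate block called 3 higher and 2 lower. The 23 tested receptor tyrosine kinases outside the Eph family had 1 that rose and 1 that fell (8.70%), at a median log2 fold change of −0.12. Called members numbered 0 with any 1 library left out, and 4 with the replicate block (3 higher, 1 lower). FGFR4, a receptor for fibroblast growth factors, rose (log2 fold change 0.56) and the collagen receptor DDR1 fell (log2 fold change −0.55). Among 47 tested cytokines, chemokines and growth factors, 1 rose and 2 fell (6.38%), and the median log2 fold change was −0.30. Calls came to 8 with the replicate block (2 higher, 6 lower). The chemokine CXCL12 averaged 5.03 ± 0.654 CPM in KO and 10.4 ± 0.490 CPM in Scramble (log2 fold change −1.05, SE 0.22, adjusted p = 0.0177), and ANGPT2, a ligand of the TIE2 receptor, 0.485 ± 0.0832 CPM in KO and 1.94 ± 0.625 CPM in Scramble (log2 fold change −1.99, SE 0.37, adjusted p = 0.00851). The call was lost at the adjusted p given for IRS1 (0.0561 without Scramble 1), FGFR4 (0.0631 to 0.228 with any 1 library left out, 0.0576 with RLE size factors, 0.0737 with no filter on low counts, 0.0582 without the genes of chromosome 22), DDR1 (0.0677 to 0.16 with any 1 library left out), CXCL12 (0.0662 to 0.1 with any library except KO 3 and Scramble 3 left out) and ANGPT2 (0.0513 without KO 3).

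**Figure D3:**
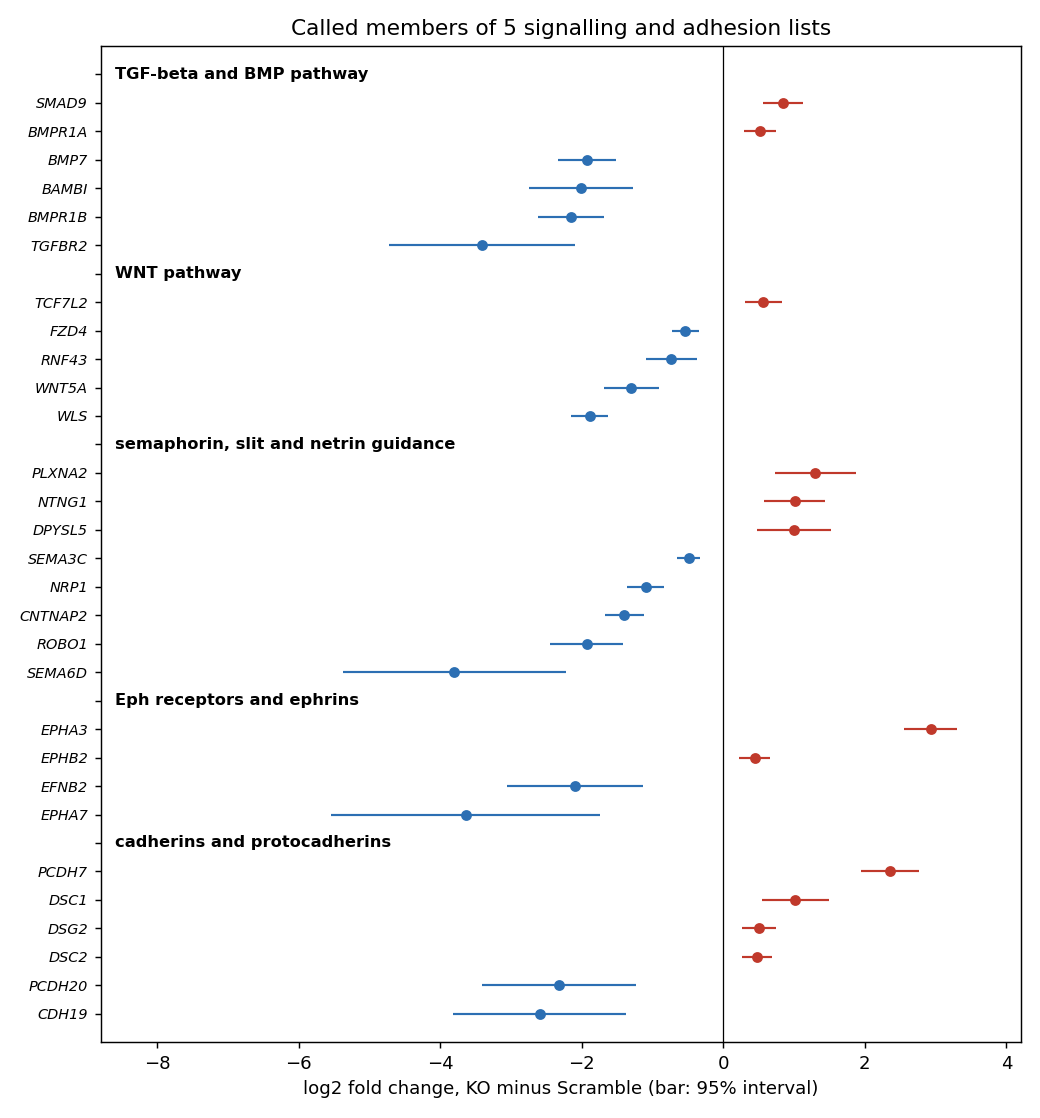
Log2 fold change, KO minus Scramble, with its 95% interval (bars) for the called members of the TGF-beta and BMP, WNT, guidance, Eph and cadherin lists, grouped by list. Points right of 0 are higher in KO, and intervals of genes near silence in 1 line, such as TGFBR2 and SEMA6D, are the widest.

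Genes of axon guidance, which in epithelium steer cell movement and contact, had a called share above that of all tested genes. Of 57 tested guidance genes, 3 rose and 5 fell (14%), with a median log2 fold change of 0.04. Members called numbered 4 to 7 with 1 library left out, fewest without KO 1, and 15 with the replicate block (6 higher, 9 lower). The slit receptor ROBO1 had 5.49, 3.96 and 3.31 CPM in KO, against 15.7, 14.8 and 18.2 CPM in Scramble (log2 fold change −1.93, SE 0.24, adjusted p = 0.00042). The semaphorin coreceptor NRP1 averaged 55.3 ± 4.42 CPM in KO and 118 ± 18.9 CPM in Scramble (log2 fold change −1.10, SE 0.12, adjusted p = 0.000152), and its ligand SEMA3C 100.1 ± 4.29 CPM in KO and 141 ± 5.87 CPM in Scramble (log2 fold change −0.49, SE 0.08, adjusted p = 0.00241). Receptor and ligand were both lower in every KO library than in any Scramble library. CNTNAP2, a neurexin-like adhesion protein, averaged 5.66 ± 0.198 CPM in KO and 14.9 ± 1.08 CPM in Scramble (log2 fold change −1.40, SE 0.13, adjusted p = 2.43e-05), and the semaphorin SEMA6D was off in KO as given above. The semaphorin receptor PLXNA2 rose to 9.80 CPM in KO, against 4.00 CPM in Scramble (log2 fold change 1.30, SE 0.27, adjusted p = 0.017). The other risen members were the netrin relative NTNG1 and DPYSL5, of a family that relays semaphorin signals, at log2 fold changes of 1.01 and 1.00. The 20 tested Eph receptors and ephrins had 2 that rose and 2 that fell (20%), at a median log2 fold change of 0.07. The calls numbered 1 to 2 with 1 library left out, fewest without KO 1, KO 2 or Scramble 3, and the replicate block called 2 higher and 3 lower. Beside EPHA3, EPHB2 rose (log2 fold change 0.44, SE 0.10, adjusted p = 0.0316), while the ligand EFNB2 (log2 fold change −2.09, SE 0.45, adjusted p = 0.0221) and the receptor EPHA7 fell. In other fits no call was made for PLXNA2 (0.0522 to 0.067 without KO 1, KO 2 or Scramble 3), NTNG1 (0.0535 to 0.0904 with any library except KO 3 and Scramble 3 left out), DPYSL5 (0.0669 to 0.201 with any library except Scramble 1 left out), EFNB2 (0.0912 to 0.12 without KO 1, KO 2 or Scramble 3), EPHB2 (0.0652 to 0.182 with any 1 library left out, 0.0912 in the fit of the 6 libraries alone, 0.061 in the libraries numbered 1 and 2, 0.0765 with no filter on low counts) and EPHA7 (0.0597 to 0.214 with any 1 library left out, 0.0585 in the fit of the 6 libraries alone, 0.0832 in the libraries numbered 1 and 2, 0.0839 with no filter on low counts).

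Cadherins and desmosomal cadherins hold epithelial cells together. Among 52 tested cadherins and protocadherins, 4 rose and 2 fell (11.5%), and the median log2 fold change was 0.30. In other fits the calls came to 1 to 3 with 1 library left out, fewest without KO 1 or KO 2. The replicate block called 4 higher and 3 lower. The protocadherin PCDH7 had 58.6, 59.99 and 58.7 CPM in KO, against 10.1, 8.72 and 15.7 CPM in Scramble (log2 fold change 2.36, SE 0.19, adjusted p = 7.99e-06). The desmosomal genes DSC1, DSC2 and DSG2 all rose, at log2 fold changes of 1.02, 0.47 and 0.50; DSG2 averaged 390.1 ± 11.5 CPM in KO and 275 ± 21.1 CPM in Scramble. The 3 lie near each other in a cluster of desmosomal genes on chromosome 18. The protocadherin PCDH20 and the cadherin CDH19 fell, at log2 fold changes of −2.32 and −2.59. Adjusted p rose above 0.05 in some fits for DSC1 (0.0513 to 0.124 with any 1 library left out), DSC2 (0.0545 to 0.107 with any library except KO 3 left out), DSG2 (0.0721 to 0.162 with any library except Scramble 3 left out), PCDH20 (0.0873 to 0.107 with any library except Scramble 1 and Scramble 2 left out, 0.0613 in the libraries numbered 1 and 2) and CDH19 (0.0648 to 0.128 with any library except Scramble 1 left out, 0.0665 in the libraries numbered 1 and 2).

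Of the matrix, COL12A1, a collagen that binds fibrils, had 1.60, 1.60 and 1.63 CPM in KO, against 71.1, 71.7 and 42.6 CPM in Scramble (log2 fold change −5.26, SE 0.29, adjusted p = 1.98e-07). Of 71 tested matrix genes, 1 rose and 5 fell (8.45%), with a median log2 fold change of 0.06. The number called was 3 to 4 with 1 library left out, fewest with any library except KO 2 left out, and 17 with the replicate block (7 higher, 10 lower). Fibronectin (FN1) averaged 33.8 ± 5.51 CPM in KO and 150.3 ± 22.5 CPM in Scramble and thrombospondin 1 (THBS1) 29.1 ± 2.16 CPM in KO and 176 ± 43.2 CPM in Scramble. COL4A5, a basement membrane collagen, rose (log2 fold change 0.37, SE 0.08, adjusted p = 0.0177), and the proteoglycan SPOCK1 fell (log2 fold change −1.49, SE 0.35, adjusted p = 0.038), as did fibulin 1 (FBLN1), on chromosome 22 (log2 fold change −1.22). The integrin ITGB4, the laminin receptor subunit of hemidesmosomes, rose (log2 fold change 0.54), as 1 of 21 tested integrins. The matrix protease ADAMTS1 averaged 165 ± 11.7 CPM in KO and 285 ± 26.8 CPM in Scramble (log2 fold change −0.79, SE 0.13, adjusted p = 0.00315). THBS1, FN1 and COL12A1 were lower in every KO library than in any Scramble library. Not called in every fit, with the adjusted p in brackets, were COL4A5 (0.0513 to 0.122 with any 1 library left out, 0.0553 in the fit of the 6 libraries alone), SPOCK1 (0.0584 to 0.178 with any 1 library left out), FBLN1 (0.0772 to 0.175 with any 1 library left out) and ITGB4 (0.0546 without Scramble 2).

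Receptors coupled to G proteins, which relay hormones and transmitters, included several with large changes. The 107 tested G protein-coupled receptors had 3 that rose and 6 that fell (8.41%), at a median log2 fold change of −0.02. Called members numbered 5 to 9 with 1 library left out, fewest without KO 2, KO 3 or Scramble 2, and 19 with the replicate block (7 higher, 12 lower). The adhesion receptors ADGRG6 and ADGRD1 rose, with ADGRD1 at 12.6 ± 1.90 CPM in KO and 2.08 ± 0.429 CPM in Scramble (log2 fold change 2.61, SE 0.27, adjusted p = 6.71e-05), while the adhesion receptor ADGRL2 had 6, 2 and 8 counts in KO, against 70, 65 and 125 counts in Scramble. The muscarinic receptor CHRM3 had 3, 1 and 1 counts in KO, against 27, 31 and 19 counts in Scramble, a ratio of Scramble over KO of 17.4-fold (95% counting interval 7.15 to 55.2). The GLP1R and ADORA2A genes fell too, the first chosen after its values were seen and the second on chromosome 22. The call was lost at the adjusted p given for CHRM3 (0.0528 to 0.118 with any library except Scramble 3 left out), GLP1R (0.0988 to 0.149 with any library except Scramble 3 left out, 0.0539 in the libraries numbered 1 and 2) and ADORA2A (0.0571 to 0.138 with any library except Scramble 3 left out).

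Genes acting on cyclic nucleotides, the messengers of many such receptors, were mixed. Among 38 tested cyclic nucleotide enzymes, 2 rose and 2 fell (10.5%), and the median log2 fold change was 0.08. Calls came to 2 to 4 with 1 library left out, fewest with any library except KO 3 and Scramble 2 left out, and 7 with the replicate block (3 higher, 4 lower). The cyclic AMP phosphodiesterase PDE3A, whose cousin in fat cells opposes lipolysis, had 4, 6 and 2 counts in KO, against 38, 77 and 139 counts in Scramble, a ratio of Scramble over KO of 23.9-fold (95% counting interval 13.5 to 46.9). PDE6B averaged 0.460 ± 0.208 CPM in KO and 2.03 ± 0.625 CPM in Scramble (log2 fold change −2.14, SE 0.38, adjusted p = 0.0066). The calmodulin-activated phosphodiesterase PDE1A rose (log2 fold change 1.69, SE 0.34, adjusted p = 0.0162), as did the soluble guanylate cyclase subunit GUCY1A1 (log2 fold change 0.40, SE 0.08, adjusted p = 0.0177). PDE3A varied within Scramble, lowest in replicate 1 and highest in replicate 3. Downstream, the protein kinase A inhibitor PKIA had 0, 0 and 0 counts in KO, against 27, 18 and 35 counts in Scramble, at least 30.2-fold lower in KO, and the phosphatase inhibitor PPP1R1B averaged 0.201 ± 0.0513 CPM in KO and 1.66 ± 0.519 CPM in Scramble (log2 fold change −3.02, SE 0.41, adjusted p = 0.000867). PKIA and PPP1R1B were picked with their values known. In other fits no call was made for PDE1A (0.0707 to 0.0904 with any library except KO 3 and Scramble 2 left out), GUCY1A1 (0.0659 to 0.0891 with any library except KO 3 left out, 0.0645 in the fit of the 6 libraries alone) and PKIA (0.072 to 0.117 with any 1 library left out).

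Calcium-related genes included a fallen inhibitor and a fallen kinase. Of 19 tested calmodulin kinases and inhibitors, 0 rose and 2 fell (10.5%), with a median log2 fold change of −0.03. Members called numbered 4 with the replicate block (1 higher, 3 lower). Beside CAMK2N1, the kinase subunit CAMK2D averaged 5.89 ± 0.338 CPM in KO and 11.4 ± 1.48 CPM in Scramble (log2 fold change −0.95, SE 0.17, adjusted p = 0.00747). Of the calcium-permeable channels, the cold-sensing TRPM8 had 34.9, 36.5 and 32.99 CPM in KO, against 117, 108 and 95.3 CPM in Scramble (log2 fold change −1.62, SE 0.15, adjusted p = 2.77e-05), and the epithelial calcium channel TRPV6 averaged 20.7 ± 2.01 CPM in KO and 38.7 ± 1.90 CPM in Scramble (log2 fold change −0.91, SE 0.17, adjusted p = 0.00922). The 83 tested other ion channels had 0 that rose and 4 that fell (4.82%), at a median log2 fold change of −0.04. The calls numbered 1 to 3 with 1 library left out, fewest without KO 2 or KO 3. The replicate block called 0 higher and 5 lower, a smaller share than the 8.29% over all tested genes. Among 39 tested potassium channels, 1 rose and 2 fell (7.69%), and the median log2 fold change was −0.10. In other fits the calls came to 1 to 2 with 1 library left out, fewest without KO 1 or KO 3, and 7 with the replicate block (3 higher, 4 lower). The inward rectifier KCNJ12 had 8.80, 7.44 and 8.25 CPM in KO, against 2.53, 2.65 and 2.84 CPM in Scramble (log2 fold change 1.61, SE 0.16, adjusted p = 6.77e-05), and KCND2, which carries a transient outward current, had 2, 7 and 4 counts in KO, against 40, 43 and 47 counts in Scramble. Its relative KCND3 and the nicotinic receptor subunit CHRNA7 fell, at log2 fold changes of −0.91 and −1.39. KCNJ12 has near-identical relatives, so its value is uncertain. Adjusted p rose above 0.05 in some fits for TRPV6 (0.0507 to 0.0536 without KO 2 or KO 3), KCND2 (0.0722 to 0.0769 without KO 1 or KO 3), KCND3 (0.0668 to 0.151 with any 1 library left out) and CHRNA7 (0.0795 to 0.136 with any library except Scramble 3 left out).

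Membrane carriers of nutrients, ions and drugs were counted as 1 family. Of 275 tested solute carriers, 5 rose and 9 fell (5.09%), with a median log2 fold change of −0.06. The number called was 4 to 9 with 1 library left out, fewest without KO 1 or Scramble 1, and 32 with the replicate block (11 higher, 21 lower). Organic cation carriers stood at both ends: the uptake carrier SLC22A3 had 1.29, 1.01 and 1.08 CPM in KO, against 11.8, 12.7 and 10.3 CPM in Scramble (log2 fold change −3.36, SE 0.30, adjusted p = 1.95e-05), and the efflux carrier SLC47A1 had 106, 84 and 71 counts in KO, against 2, 3 and 18 counts in Scramble, a ratio of KO over Scramble of 10.03-fold (95% counting interval 6.54 to 16.1). SLC47A1 was uneven within Scramble, with most of its counts in replicate 3. SLC44A4, a carrier of choline and thiamine derivatives, averaged 136 ± 5.13 CPM in KO and 229 ± 25.04 CPM in Scramble (log2 fold change −0.75, SE 0.11, adjusted p = 0.00172), and the vitamin C carrier SLC23A1 1.62 ± 0.00816 CPM in KO and 3.90 ± 0.238 CPM in Scramble (log2 fold change −1.27, SE 0.17, adjusted p = 0.000881). The bicarbonate carrier SLC4A4 fell (log2 fold change −1.09, SE 0.24, adjusted p = 0.0257), and so did the amino acid carrier SLC36A1 and the sulfate carrier SLC26A1, at log2 fold changes of −0.51 and −0.56. Outside the solute carriers, the cyclic nucleotide and drug exporter ABCC4 had 179.6, 192 and 207 CPM in KO, against 307, 271 and 309 CPM in Scramble (log2 fold change −0.62, SE 0.10, adjusted p = 0.00297). Not called in every fit, with the adjusted p in brackets, were SLC4A4 (0.0569 to 0.127 with any 1 library left out), SLC36A1 (0.0501 to 0.0906 with any 1 library left out, 0.0753 in the libraries numbered 1 and 2) and SLC26A1 (0.0613 to 0.114 with any library except Scramble 2 and Scramble 3 left out, 0.0532 in the fit of the 6 libraries alone).

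Androgen-responsive genes, a defining programme of luminal prostate cells, went in both directions. The 34 tested androgen-responsive genes had 2 that rose and 5 that fell (20.6%), at a median log2 fold change of −0.13. Called members numbered 4 to 7 with 1 library left out, fewest without KO 3, Scramble 1 or Scramble 2, and 13 with the replicate block (3 higher, 10 lower). The secreted protease KLK2 averaged 470.3 ± 58.9 CPM in KO and 872 ± 51.3 CPM in Scramble (log2 fold change −0.89, SE 0.13, adjusted p = 0.00193), and the membrane protease TMPRSS2 265 ± 35.7 CPM in KO and 435 ± 79.7 CPM in Scramble (log2 fold change −0.71, SE 0.17, adjusted p = 0.0359). KLK genes share sequence, which makes KLK2 uncertain to that extent. The transcription factor MAF rose (log2 fold change 0.96, SE 0.18, adjusted p = 0.00973), and UGT2B15, given below, was the other risen member. Members were counted without regard to whether androgen raises or lowers them. ABCC4 and TRPM8, given above, and CHRNA2 were the other fallen members. Among 19 tested genes of androgen and steroid metabolism, 2 rose and 1 fell (15.8%), and the median log2 fold change was 0.04. Calls came to 0 to 1 with 1 library left out, fewest without Scramble 2, and 7 with the replicate block (5 higher, 2 lower). CYP11A1, the enzyme that opens steroid synthesis from cholesterol, averaged 6.95 ± 2.37 CPM in KO and 2.64 ± 0.477 CPM in Scramble (log2 fold change 1.40, SE 0.27, adjusted p = 0.0114). UGT2B15, which inactivates androgens by glucuronidation, averaged 5.16 ± 1.08 CPM in KO and 1.85 ± 0.451 CPM in Scramble (log2 fold change 1.48, SE 0.29, adjusted p = 0.0122), and the sulfotransferase SULT2B1 fell (log2 fold change −0.84, SE 0.19, adjusted p = 0.0321). The call was lost at the adjusted p given for TMPRSS2 (0.0613 to 0.164 with any library except Scramble 3 left out), MAF (0.0546 without Scramble 2), CHRNA2 (0.0715 to 0.178 with any library except KO 1 and Scramble 2 left out, 0.0816 in the fit of the 6 libraries alone, 0.177 in the libraries numbered 1 and 2), CYP11A1 (0.0543 to 0.064 with any library except KO 3 and Scramble 1 left out), UGT2B15 (0.0591 to 0.0829 without KO 3, Scramble 1 or Scramble 2) and SULT2B1 (0.0546 to 0.146 with any 1 library left out, 0.0701 in the libraries numbered 1 and 2).

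Of 39 tested kallikreins, membrane serine proteases and serpins, 1 rose and 4 fell (12.8%), with a median log2 fold change of −0.56. Members called numbered 2 to 4 with 1 library left out, fewest without KO 2 or Scramble 2, and 13 with the replicate block (2 higher, 11 lower). Beside KLK2, TMPRSS2 and SERPINB9, the kallikrein KLK15 and the secreted protease PRSS23 fell, at log2 fold changes of −0.74 and −1.03. The 53 tested cytochrome P450, aldehyde dehydrogenase and UGT enzymes had 2 that rose and 1 that fell (5.66%), at a median log2 fold change of −0.04. The calls numbered 0 to 2 with 1 library left out, fewest without Scramble 2, and 11 with the replicate block (6 higher, 5 lower). Beside CYP11A1 and UGT2B15, the aldehyde dehydrogenase ALDH3B2 fell (log2 fold change −0.52). Among 10 tested keratins, 0 rose and 2 fell (20%), and the median log2 fold change was −0.36. In other fits the calls came to 1 to 2 with 1 library left out, fewest without KO 3, and the replicate block called 0 higher and 3 lower. Beside KRT14, the epithelial keratin KRT80 fell (log2 fold change −1.17). In other fits no call was made for KLK15 (0.0604 to 0.0826 without KO 2, KO 3 or Scramble 2), PRSS23 (0.0574 to 0.0891 with any library except KO 3 and Scramble 1 left out), ALDH3B2 (0.0509 to 0.12 with any library except KO 1 left out) and KRT80 (0.0555 without KO 3, 0.0559 in the libraries numbered 1 and 2).

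Interferon-stimulated genes encode antiviral sensors and effectors. Of 44 tested interferon response genes, 9 rose and 0 fell (20.5%), with a median log2 fold change of 0.37. The number called was 2 to 5 with 1 library left out, fewest without Scramble 2, and 14 with the replicate block (13 higher, 1 lower). The share that rose stands beside 0.969% over all tested genes. Many carry in their promoters an interferon-stimulated response element (ISRE), searched here as GAAANNGAAA on both strands in RefSeq promoters (GRCh38.p14, 250 bases before to 50 after the gene start). It was found in 6 of the 7 risen members with an entry and in 17 of the 26 other tested members with one, beside 2.67% of 11244 promoters of tested genes and 3.65% of all 27305 in the table. Over all called genes, 10 of the 107 risen ones with an entry held it (9.35%), the 6 included, and 1 of 183 fallen ones (0.546%). Promoters of 4 risen members are printed from chr10:89327747-89328046 (plus strand), chr11:313790-314089 (plus strand), chr3:122680589-122680888 (plus strand) and chr7:93117930-93118229 (minus strand), since the shared element is what they have in common. Letters in capitals mark the element on either strand, and a match is a description of these letters only.
IFIT3 promoter: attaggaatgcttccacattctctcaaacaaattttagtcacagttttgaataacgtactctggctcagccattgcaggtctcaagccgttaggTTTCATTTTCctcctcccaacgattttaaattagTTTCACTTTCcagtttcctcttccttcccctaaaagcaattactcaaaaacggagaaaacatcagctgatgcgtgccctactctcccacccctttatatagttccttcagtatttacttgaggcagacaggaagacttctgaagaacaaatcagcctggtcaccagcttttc
IFITM1 promoter: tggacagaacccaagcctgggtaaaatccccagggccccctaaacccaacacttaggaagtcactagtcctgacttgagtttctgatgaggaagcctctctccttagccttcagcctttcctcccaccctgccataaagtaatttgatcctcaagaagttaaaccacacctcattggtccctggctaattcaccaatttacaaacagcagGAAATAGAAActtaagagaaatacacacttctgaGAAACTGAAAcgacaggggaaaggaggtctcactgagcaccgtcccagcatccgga
PARP14 promoter: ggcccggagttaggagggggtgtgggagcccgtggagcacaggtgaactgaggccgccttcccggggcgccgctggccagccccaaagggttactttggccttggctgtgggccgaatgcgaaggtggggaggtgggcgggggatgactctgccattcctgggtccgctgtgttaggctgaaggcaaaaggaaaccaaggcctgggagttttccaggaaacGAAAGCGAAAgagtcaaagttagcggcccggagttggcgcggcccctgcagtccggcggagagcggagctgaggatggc
SAMD9 promoter: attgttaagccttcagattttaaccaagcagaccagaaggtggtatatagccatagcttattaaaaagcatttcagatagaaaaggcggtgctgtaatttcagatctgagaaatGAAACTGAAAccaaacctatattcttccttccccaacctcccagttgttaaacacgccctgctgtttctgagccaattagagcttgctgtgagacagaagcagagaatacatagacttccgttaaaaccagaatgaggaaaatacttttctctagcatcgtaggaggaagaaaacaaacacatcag

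PARP14, an ADP-ribosyltransferase, had 17.3, 13.3 and 14.4 CPM in KO, against 7.53, 7.99 and 7.27 CPM in Scramble (log2 fold change 0.98, SE 0.13, adjusted p = 0.000584). SAMD9, an antiviral factor, had 71, 55 and 118 counts in KO, against 1, 8 and 11 counts in Scramble, a ratio of KO over Scramble of 10.8-fold (95% counting interval 6.83 to 17.97). Both were called with each library left out in turn. The RNA-binding IFIT3 averaged 1.81 ± 0.193 CPM in KO and 0.561 ± 0.281 CPM in Scramble (log2 fold change 1.68, SE 0.37, adjusted p = 0.0255), its neighbour IFIT2 0.964 ± 0.108 CPM in KO and 0.338 ± 0.185 CPM in Scramble (log2 fold change 1.53, SE 0.33, adjusted p = 0.0244), and the membrane protein IFITM1 8.17 ± 0.470 CPM in KO and 4.12 ± 0.404 CPM in Scramble (log2 fold change 0.99, SE 0.21, adjusted p = 0.0183). These levels are low, and IFITM genes share near-identical sequence. The oligoadenylate synthase OAS1 averaged 1.87 ± 0.216 CPM in KO and 0.826 ± 0.332 CPM in Scramble (log2 fold change 1.16, SE 0.26, adjusted p = 0.0287) and the double-stranded RNA kinase EIF2AK2 34.1 ± 1.82 CPM in KO and 26.3 ± 0.537 CPM in Scramble (log2 fold change 0.37, SE 0.08, adjusted p = 0.0187). The other risen members were OASL and IFITM3. Adjusted p rose above 0.05 in some fits for IFIT3 (0.0613 to 0.133 with any library except Scramble 3 left out), IFIT2 (0.0513 to 0.135 with any library except Scramble 1 left out, 0.11 in the fit of the 6 libraries alone, 0.0847 in the libraries numbered 1 and 2), IFITM1 (0.0568 to 0.108 with any library except KO 1 left out), OAS1 (0.0613 to 0.112 with any library except Scramble 3 left out, 0.119 in the fit of the 6 libraries alone), EIF2AK2 (0.0783 to 0.108 with any library except KO 2 and Scramble 3 left out, 0.0791 in the fit of the 6 libraries alone), OASL (0.0664 to 0.137 with any library except KO 3 left out, 0.0813 in the fit of the 6 libraries alone) and IFITM3 (0.0662 to 0.138 with any 1 library left out, 0.082 in the fit of the 6 libraries alone, 0.0881 in the libraries numbered 1 and 2, 0.0662 with no filter on low counts).

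A further 3 risen genes were chosen after their values were seen, from no fixed list. The nucleic acid sensor IFI16 had 88, 82 and 70 counts in KO, against 2, 2 and 18 counts in Scramble, a ratio of KO over Scramble of 9.65-fold (95% counting interval 6.22 to 15.7). The initiator caspase CASP10 averaged 6.82 ± 0.938 CPM in KO and 2.89 ± 0.480 CPM in Scramble (log2 fold change 1.24, SE 0.20, adjusted p = 0.0036), and CARD6, a caspase-recruitment protein, 1.90 ± 0.755 CPM in KO and 0.724 ± 0.188 CPM in Scramble (log2 fold change 1.38, SE 0.31, adjusted p = 0.0281). IFI16 was low in Scramble 1 and 2 and higher in Scramble 3. In antigen presentation 0 of 22 tested members were called, and the replicate block called 3 higher and 1 lower. APOBEC3F, an antiviral cytidine deaminase on chromosome 22, rose (log2 fold change 0.95), as 1 of 4 tested APOBEC3 genes. Not called in every fit, with the adjusted p in brackets, were IFI16 (0.061 to 0.0646 without Scramble 1 or Scramble 2), CARD6 (0.107 to 0.14 with any library except KO 3 and Scramble 3 left out, 0.101 in the fit of the 6 libraries alone) and APOBEC3F (0.0571 to 0.0646 without KO 1 or Scramble 1).

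**Figure D4:**
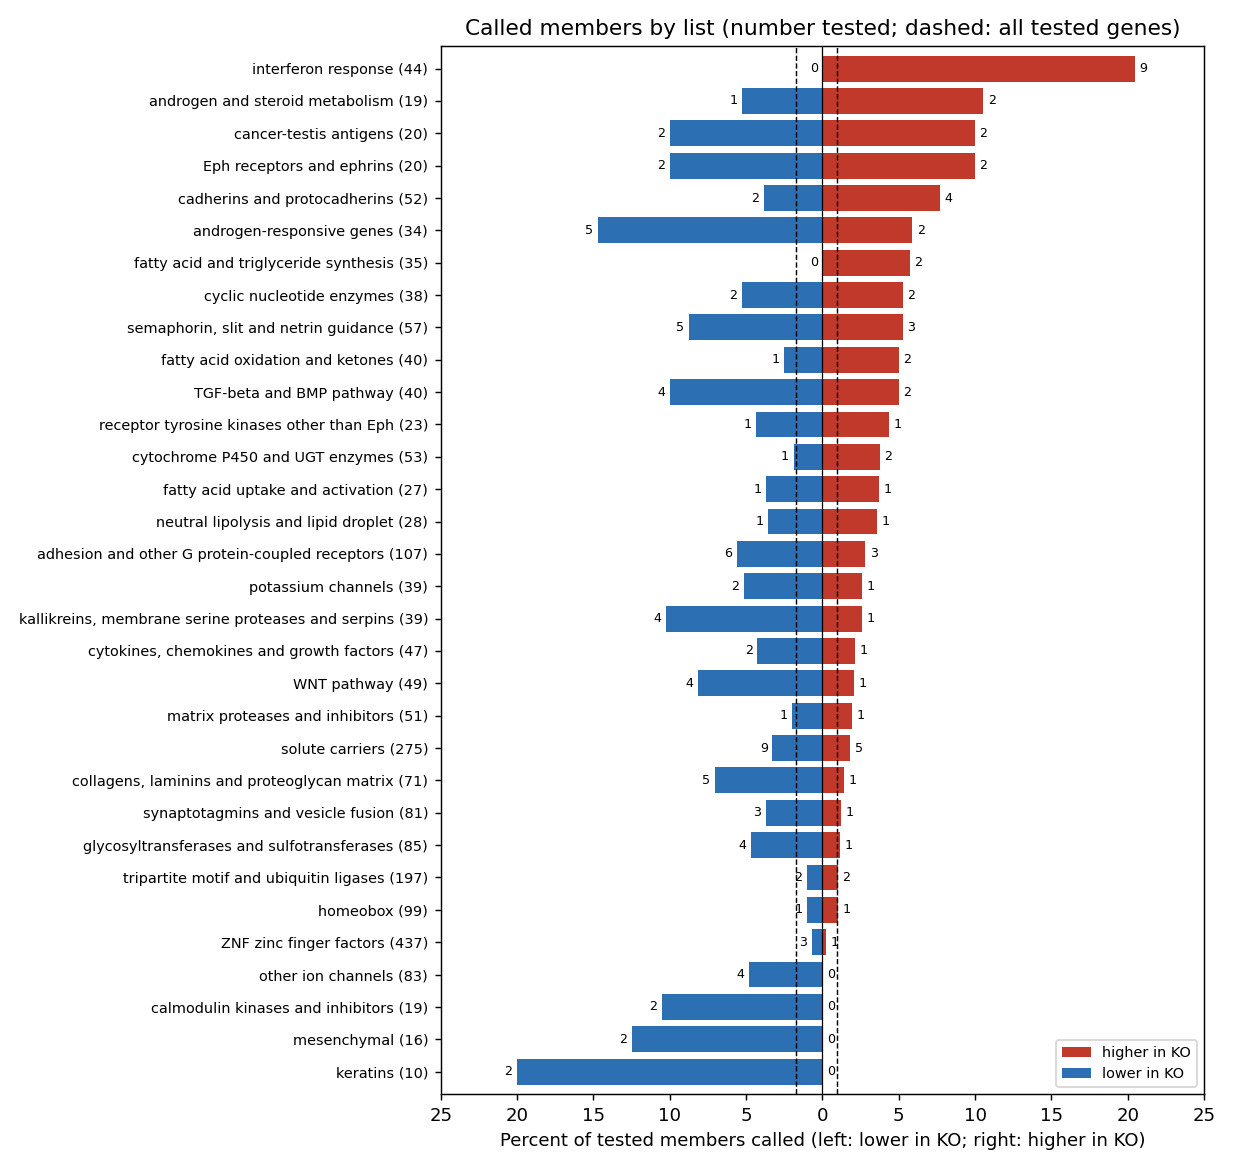
Percent of tested members called higher (right) and lower (left) in KO for the 32 lists and families with at least 10 tested and at least 2 called members, with the number called beside each bar. Dashed lines mark the shares over all tested genes, 0.969% higher and 1.72% lower.

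Of 30 tested luminal epithelial genes 0 rose and 1 fell (3.33%), and the replicate block called 3 lower. The fallen gene, the disulfide isomerase AGR2 of secretory epithelium, had 2.20, 2.43 and 3.87 CPM in KO, against 39.3, 39.4 and 33.6 CPM in Scramble (log2 fold change −3.72, SE 0.33, adjusted p = 1.81e-05), and its neighbours TSPAN13 and AHR on chromosome 7 fell with it. AHR, the aryl hydrocarbon receptor, averaged 2.92 ± 0.442 CPM in KO and 8.43 ± 0.430 CPM in Scramble (log2 fold change −1.53, SE 0.27, adjusted p = 0.00591), and TSPAN13 204 ± 20.7 CPM in KO and 305 ± 2.50 CPM in Scramble (log2 fold change −0.58, SE 0.11, adjusted p = 0.0104). Neither gene was in a list, and both were picked with their values known. The 81 tested synaptotagmins and vesicle fusion genes had 1 that rose and 3 that fell (4.94%), at a median log2 fold change of 0.00. Called members numbered 2 to 3 with 1 library left out, fewest with any library except KO 3 and Scramble 3 left out, and 10 with the replicate block (3 higher, 7 lower). Beside SYT4, the vesicle tether SYTL2 fell (log2 fold change −0.65, SE 0.15, adjusted p = 0.0404), the plasma membrane syntaxin STX3 fell (log2 fold change −0.48, SE 0.10, adjusted p = 0.021), and the active-zone protein RIMS3 rose (log2 fold change 0.95, SE 0.17, adjusted p = 0.00843). Among 85 tested glycosyltransferases and sulfotransferases, 1 rose and 4 fell (5.88%), and the median log2 fold change was −0.07. Calls came to 3 to 4 with 1 library left out, fewest without KO 2 or KO 3, and 13 with the replicate block (1 higher, 12 lower). The polysialyltransferase ST8SIA4 had 0, 0 and 0 counts in KO, against 14, 21 and 21 counts in Scramble, at least 21.1-fold lower in KO. The chondroitin synthase CSGALNACT1 averaged 6.80 ± 0.300 CPM in KO and 14.1 ± 0.300 CPM in Scramble (log2 fold change −1.05, SE 0.14, adjusted p = 0.000777). LARGE2, which extends sugars of dystroglycan, and the sialyltransferase ST6GALNAC1 fell, at log2 fold changes of −0.60 and −0.44, and the sialyltransferase ST3GAL2 rose, at 0.48. The call was lost at the adjusted p given for TSPAN13 (0.0575 without KO 1), SYTL2 (0.0641 to 0.172 with any library except KO 3 left out), STX3 (0.0635 to 0.0969 with any library except Scramble 3 left out), ST6GALNAC1 (0.0664 to 0.0732 without KO 2, KO 3 or Scramble 3) and ST3GAL2 (0.053 to 0.116 with any 1 library left out, 0.0734 in the fit of the 6 libraries alone, 0.0556 in the libraries numbered 1 and 2).

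Among genes chosen after their values were seen, GYG2, which primes glycogen, averaged 0.740 ± 0.0536 CPM in KO and 4.57 ± 0.714 CPM in Scramble (log2 fold change −2.62, SE 0.40, adjusted p = 0.00222), and PGM1, which moves phosphate on glucose into and out of glycogen, 7.99 ± 1.42 CPM in KO and 17.9 ± 1.53 CPM in Scramble (log2 fold change −1.16, SE 0.17, adjusted p = 0.00193). CPS1, the mitochondrial carbamoyl phosphate synthase of the urea cycle, rose to 3.10 CPM in KO, against 0.597 CPM in Scramble (log2 fold change 2.39, SE 0.33, adjusted p = 0.00105). COX7B2, a testis form of a respiratory chain subunit, averaged 6.88 ± 2.10 CPM in KO and 2.76 ± 0.274 CPM in Scramble (log2 fold change 1.32, SE 0.23, adjusted p = 0.0066), the only called gene among 80 nuclear subunits tested.

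Testis antigens were called in both directions. Of 20 tested cancer-testis antigens, 2 rose and 2 fell (20%), with a median log2 fold change of 0.03. The replicate block also called 2 higher and 2 lower. MAGEC2 had 40, 40 and 38 counts in KO, against 4, 0 and 3 counts in Scramble, a ratio of KO over Scramble of 14.9-fold (95% counting interval 7.01 to 37.9), whereas CTAG2 averaged 0.269 ± 0.164 CPM in KO and 3.42 ± 0.570 CPM in Scramble (log2 fold change −3.65, SE 0.44, adjusted p = 0.000308) and MAGEA4 had 1, 1 and 1 counts in KO, against 46, 81 and 50 counts in Scramble. All 4 called members were near silent in 1 of the 2 lines or at a few CPM, and reads of this family may be shared between copies.

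Other large families sat near or below the share of all tested genes. The 437 tested zinc finger factors had 1 that rose and 3 that fell (0.915%), at a median log2 fold change of 0.08. The calls numbered 0 to 1 with 1 library left out, fewest with any library except Scramble 1 and Scramble 3 left out, and 25 with the replicate block (14 higher, 11 lower). ZNF552 rose, and ZNF415, ZNF556 and ZNF605 fell. Among 138 tested GTPase regulators, 1 rose and 0 fell (0.725%), and the median log2 fold change was 0.02. In other fits the calls came to 0 to 1 with 1 library left out, fewest with any library except KO 3 left out, and 12 with the replicate block (6 higher, 6 lower). The member that rose was ARHGAP28, a GTPase-activating protein, while the small GTPase RND3 fell, as 1 of 133 in its family. Of 99 tested homeobox genes, 1 rose and 1 fell (2.02%), with a median log2 fold change of 0.06. The number called was 0 to 2 with 1 library left out, fewest without Scramble 1, and 8 with the replicate block (5 higher, 3 lower). HOXB6 rose and the paired box gene PAX1 fell, at log2 fold changes of 1.17 and −1.50. The 197 tested tripartite motif and ubiquitin ligase genes had 2 that rose and 2 that fell (2.03%), at a median log2 fold change of 0.01. Called members numbered 1 to 2 with 1 library left out, fewest with any library except Scramble 1 left out, and 14 with the replicate block (6 higher, 8 lower). KLHL13, a substrate adaptor of ubiquitin ligases, and TRIM38 rose, at log2 fold changes of 0.96 and 0.51, and RNF43, given above, and KLHL22, on chromosome 22, fell, the second by 0.38. In other fits no call was made for ZNF552 (0.0902 to 0.231 with any 1 library left out, 0.0545 in the fit of the 6 libraries alone, 0.0562 with RLE size factors, 0.0836 with no filter on low counts, 0.0554 without the genes of chromosome 22), ZNF415 (0.0545 to 0.103 with any 1 library left out, 0.0601 in the libraries numbered 1 and 2), ZNF556 (0.0544 to 0.11 with any library except Scramble 1 left out), ZNF605 (0.0745 to 0.16 with any 1 library left out), ARHGAP28 (0.105 to 0.16 with any library except KO 3 left out, 0.0892 in the fit of the 6 libraries alone, 0.0643 with no filter on low counts), RND3 (0.061 to 0.0634 without KO 1 or KO 2), HOXB6 (0.0646 without Scramble 1), PAX1 (0.0546 to 0.0843 with any library except KO 1 and Scramble 3 left out), TRIM38 (0.0555 to 0.0722 with any 1 library left out) and KLHL22 (0.0613 to 0.178 with any library except Scramble 1 left out, 0.0741 in the fit of the 6 libraries alone, 0.109 in the libraries numbered 1 and 2).

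Ribosomal proteins (83 tested), metallothioneins and genes of the S100 and annexin families had no call. The replicate block called 1 ribosomal protein gene higher and 1 lower, and 2 S100 and annexin genes lower. Of the ribosomal protein genes 7 lay above 0 and 76 below (median log2 fold change −0.13). Nuclear respiratory chain subunits had 14 above 0 and 66 below. The lists of cell state had no call without the block either. All 36 proliferation genes lay above 0, all 38 ATF4 genes lay below 0, and 24 of 25 chaperones lay below 0 on the log2 scale. Of all 14246 tested genes, 7699 lay above 0 and 6547 below. The proliferation list had a median log2 fold change of 0.28, the ATF4 and amino acid response −0.35 and endoplasmic reticulum chaperones −0.48. With the replicate block 5 ATF4 genes and 5 chaperones fell, and among libraries numbered 1 and 2 alone, where 5.37% of all tested genes were called, 9 ATF4 genes and 7 chaperones fell. The mean ATF4 deviation was −0.86 in KO 3 and −0.55 in Scramble 3, and 0.07 to 0.63 in the other 4 libraries. The mean proliferation deviation was 0.48 in KO 3 and 0.34 in Scramble 3, and −0.43 to −0.03 in the other 4 libraries. The part of these states in the results above was not tested.

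Some called genes are neighbours along a chromosome and moved the same way. Neighbours are tested genes that follow each other by start position, at any distance. How many such pairs the number of calls alone would give was not worked out. Outside chromosome 22 the pairs include ITPRID2 with PDE1A, ASPH with NKAIN3, IFIT2 with IFIT3, DSC2 with DSC1 and ADAMTSL3 with SH3GL3 among risen genes. Among fallen genes they include AGR2 with AHR and TSPAN13, CA1 with CA13, and GLYATL1 with GLYATL2. CA13, another carbonic anhydrase, averaged 4.91 ± 0.0277 CPM in KO and 9.48 ± 0.832 CPM in Scramble (log2 fold change −0.95, SE 0.17, adjusted p = 0.00752). GLYATL1, an amino acid acyltransferase, averaged 12.3 ± 1.44 CPM in KO and 32.4 ± 5.30 CPM in Scramble (log2 fold change −1.40, SE 0.20, adjusted p = 0.00153). The level of DNA copies in the lines was not analysed here.

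Levels in the knockout lines that carry an ATGL protein are given beside these as a description. PNPLA2 averaged 11.3 CPM in KO, 219.9 CPM in KO_WT, 129 CPM in KO_S47A, 413 CPM in KO_S404A and 48.9 CPM in Scramble. Transcript of the gene was thus above the Scramble level in all 3 lines. EPHA3 averaged 476 CPM in KO, 550.1 CPM in KO_WT, 604 CPM in KO_S47A, 541 CPM in KO_S404A and 62.4 CPM in Scramble. ASPH averaged 744 CPM in KO, 781 CPM in KO_WT, 815 CPM in KO_S47A, 720.2 CPM in KO_S404A and 266 CPM in Scramble, and NECTIN3 averaged 1.69 CPM in KO, 1.64 CPM in KO_WT, 1.39 CPM in KO_S47A, 1.88 CPM in KO_S404A and 15.2 CPM in Scramble. LPL averaged 0.359 CPM in KO, 0.379 CPM in KO_WT, 0.389 CPM in KO_S47A, 0.312 CPM in KO_S404A and 11.9 CPM in Scramble. These 4 genes stayed near their KO level in every line. PCDH7 averaged 59.1 CPM in KO, 21.8 CPM in KO_WT, 50.8 CPM in KO_S47A, 30.3 CPM in KO_S404A and 11.5 CPM in Scramble. WLS averaged 5.65 CPM in KO, 12.7 CPM in KO_WT, 7.74 CPM in KO_S47A, 11.6 CPM in KO_S404A and 20.9 CPM in Scramble. CCDC85A averaged 0.735 CPM in KO, 2.74 CPM in KO_WT, 1.39 CPM in KO_S47A, 2.41 CPM in KO_S404A and 27.3 CPM in Scramble. For these 3 genes the means of the 3 lines lay between KO and Scramble, with CCDC85A still far below Scramble. PCDH7 in KO_S47A 3 had 61.1 CPM, above every KO library (58.6 to 60.0 CPM). The genes shown here are a selection by no fixed rule from those named, and the others were not counted.

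**Figure D5:**
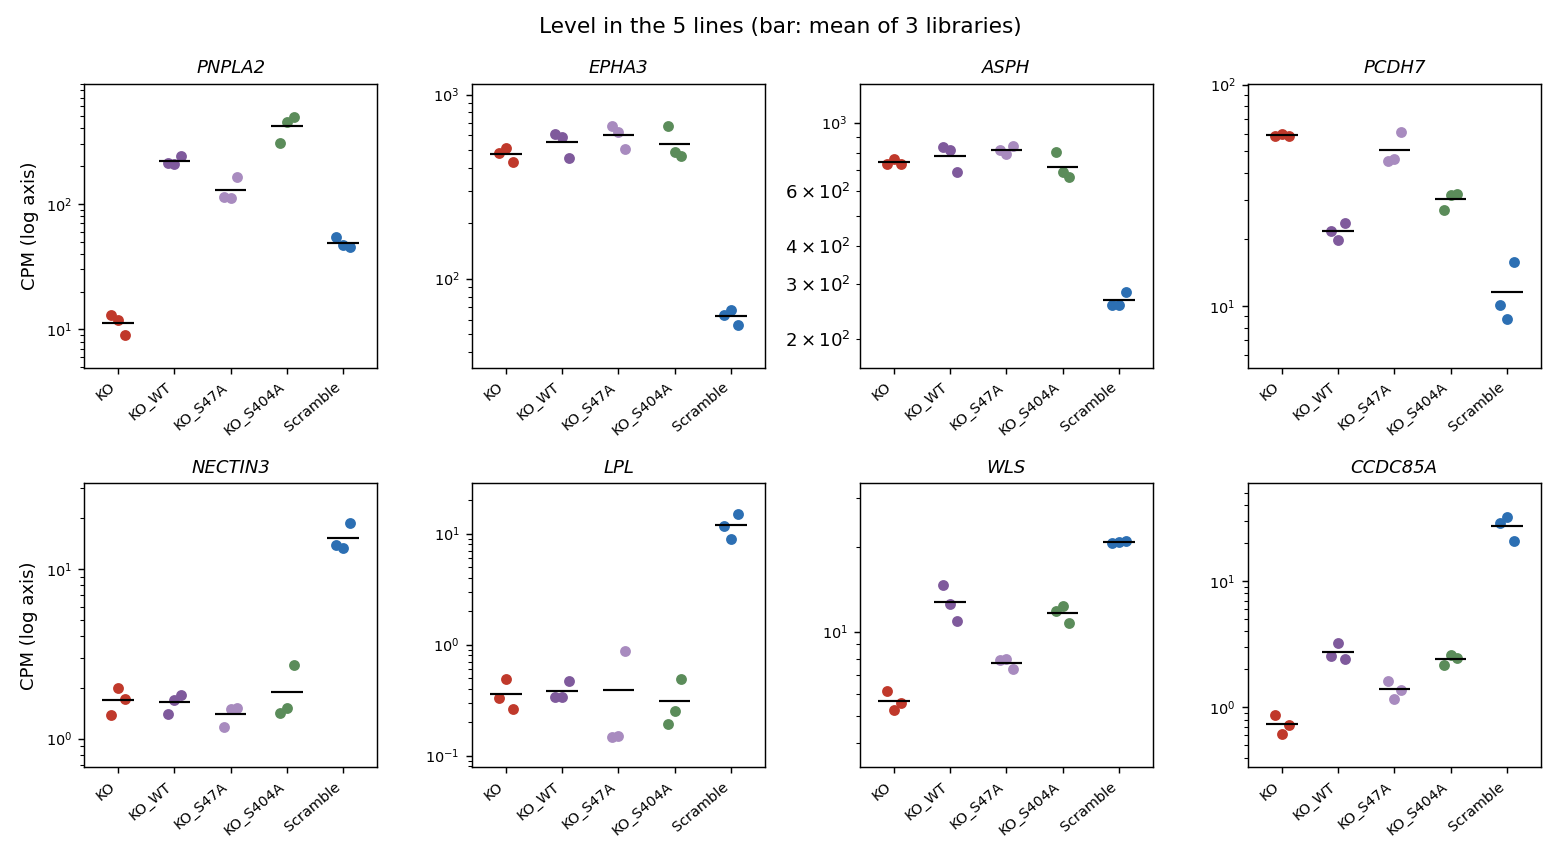
CPM (log axis) of 8 genes in the 5 lines, 1 point per library and a bar at each mean, with KO at the left and Scramble at the right. EPHA3, ASPH, NECTIN3 and LPL in the 3 lines with an ATGL protein lie near KO, while PNPLA2 lies above Scramble.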

How the data were processed

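Per the labels' protocols, poly(A) transcripts were captured on oligo-dT beads and sequenced from directional libraries. The authors deposited a table of read counts per gene for each library, as whole numbers that were not normalized. FPKM values stand beside them in the deposited tables and served here to derive gene lengths. The submitters' processing notes list STAR and CASAVA. Build, annotation and strandedness of the counting are not stated there, so coordinates of entries are left out and reads of overlapping or antisense pairs cannot be told apart. The 5 entries of unassigned reads, 15.5% to 20.6% of the 6 libraries, entered neither library sizes nor tests.

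Genes with low counts were removed with filterByExpr, sizes were scaled by TMM, and edgeR 4.0.16 (R 4.3.3) fitted a quasi-likelihood model with group means to all 15 libraries, leaving 10 residual degrees of freedom. SEs were derived from log2 fold change and F statistic, and the 95% interval had a median halfwidth of 0.36. Ratios of genes near silence are TMM-scaled, with an exact interval, and a bound takes 3 counts over the group in place of 0. The fit was tested on simulated data.

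Counts of replicates differed by more than sampling noise, so all 6 libraries were kept. Deviations from the group means correlated between same-numbered KO and Scramble libraries at 0.126, 0.17 and 0.404 for numbers 1, 2 and 3, over 14246 genes. The replicate numbers, which come from the titles, therefore entered alternative fits as a block. The main fit, with group means only, leaves them out, and values given without mention of the block are from it. KO 1 with Scramble 2 gave 0.165, and no label says what the numbers stand for.

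Genes are named by a rule: PNPLA2, then the 15 largest changes in each direction among called genes with at least 5 CPM and separate ranges, genes on or off between groups, and called members of 23 lists and 35 families, up to 8 a list. Uncalled members, of which the rule takes up to 3 a list, are mostly given by counts. The members and lists were chosen with earlier results of these data known. Lists are described by counts and medians, without a set test, and 2 genes left out of the lists are not reported here. Promoters are RefSeq's, GRCh38.p14, and 11244 of the tested genes had one. Alternatives were RLE size factors, no filter, DESeq2 1.42.0, the 6 libraries alone, the replicate block, each library left out, libraries numbered 1 and 2 alone, and no chromosome 22 genes.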

Additional observations from a re-analysis of the deposited data

How the results depend on the processing

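All 383 calls, 180 of them of genes named in the text, were also made by DESeq2 and with the replicate block. Pairing by the block thus changed no other call than those it added. DESeq2 called 667 genes, 228 higher and 439 lower in KO. Libraries numbered 1 and 2 alone gave 770, 283 higher and 487 lower. The replicate block gave 1181, 467 higher and 714 lower, of which 288 moved at least 2-fold, beside 177 without it, and in the 6 libraries alone it gave 2108. Leaving out 1 library gave 205 to 291 genes, 67 to 105 higher and 125 to 186 lower, and ended the call for 43 (Scramble 3) to 67 (KO 1 or KO 2) of the named genes, each time in a fit with fewer libraries. RLE size factors, no filter, the 6 libraries alone and omission of chromosome 22 gave 403, 354, 417 and 325 genes. The cause of the larger counts was not tested. None of the 180 called genes named in the text changed direction in a fit that tested it. Named genes that were not called were not followed in this way, nor was the block in the 6 libraries alone. With 3 libraries a group, the median halfwidth of a 95% interval was 0.36 (log2), which is a limit before adjustment. A call needed more: FGFR4, at adjusted p = 0.0498, had an unadjusted quasi-likelihood p of 0.00134. Changes under 0.36, and many somewhat above it, were therefore mostly not detectable.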
